A study of Mus musculus with 10 samples.

Results

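Neuronal splicing regulators are RNA-binding proteins that decide which alternative exons a neuron keeps, and 10 of their genes were followed here in Neuro-2a cells depleted of Sfpq. The genes were Srrm3, Srrm4, Rbfox2, Mbnl1, Mbnl2, Nova1, Nova2, Ptbp1, Ptbp2 and Khdrbs3. They were chosen by name for their function, with earlier results of these data known. All 10 were found among 23553 genes and unnamed rows of the deposited tables. For a gene with several RefSeq transcript rows, the row with the highest mean over the 8 libraries was used. Neuro-2a is a mouse neuroblastoma line, given in the labels with the strain C57BL/6+C57BL/6J+CBA. Every library came from cells that were reverse transfected with Stealth siRNA and RNAiMAX in medium with 2% serum, which the labels call a differentiated condition. In the control groups the siRNA was directed at luciferase (Luc), which mouse cells lack, and in the test groups at mouse Sfpq. Each group had 3 libraries of poly(A)-selected RNA and 1 library of RNA from which ribosomal RNA (rRNA) had been removed. The time between transfection and harvest is not given in the sources used here, and neither is whether replicates were separate cultures, and a p-value here therefore reflects only how far these libraries scatter, which may be technical. RNA polymerase II immunoprecipitation, also listed for the series, is not analysed here.

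Exon choice in neurons is set by activators and repressors that bind the pre-mRNA near an exon and often work against each other. Srrm4 and Srrm3 are related serine- and arginine-rich proteins that promote the inclusion of very short neuronal exons (microexons). Rbfox and Nova proteins raise or lower the inclusion of an exon according to whether they bind downstream or upstream of it, and Mbnl proteins, known from myotonic dystrophy, drive switches from foetal to mature exon use. Ptbp1 represses neuronal exons in dividing and non-neuronal cells, and its relative Ptbp2 takes its place as neurons form. Khdrbs3, also called SLM2 or T-STAR, controls exons of genes for synaptic proteins.

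The unit is RPKM, in which the reads of a transcript are divided by its length and by library size, so levels of different genes can be compared per length, but read counts and absolute depth are unknown. Steps between low values put the relative depth of the poly(A) libraries between 0.628 and 1.28 times that of Luc replicate 1, while after rRNA depletion it was 2.64 times (Luc) and 2.65 times (Sfpq). Sfpq itself, in its non-coding row NR_045010, the higher of 2, was at 56.8, 60.8 and 72.98 RPKM in Luc replicates 1 to 3 and at 3.98, 4.75 and 6.47 in Sfpq replicates 1 to 3, with 30.8 and 4.43 in the rRNA-depleted Luc and Sfpq libraries. It stood at 7.97% of its Luc mean in poly(A) RNA and at 14.4% of the Luc library in rRNA-depleted RNA. The coding row NM_023603 stood at 8.70% of its Luc mean in poly(A) RNA and at 17.5% in rRNA-depleted RNA (28.5 against 4.98 RPKM). All 10 sympathetic neuroblast and neuronal markers checked had a mean of at least 1 RPKM. Fibroblast markers summed to between 0.781 and 1.23 RPKM and glial markers to between 1.44 and 1.77 over all poly(A) libraries, with Lum, Aqp4 and Sox10 at 0 in each of them. Blood and vessel markers summed to between 1.47 and 1.70 RPKM in Luc and between 0.709 and 0.841 in Sfpq libraries, most of it Pecam1, and their part in the results was not tested. Luc replicate 3 correlated less with the other Luc libraries across genes (Pearson's r = 0.985 and 0.979) than these did with each other (0.996), so results that turn on it are given with and without it.

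In control cells the regulators spanned a wide range of levels. Ptbp1 led with a Luc mean of 137 RPKM in poly(A) RNA, followed by Rbfox2 with 17.6, Ptbp2 with 11.9, Mbnl1 with 10.96, Mbnl2 with 10.6, Srrm4 with 4.23, Nova2 with 3.94, Srrm3 with 3.60 and Nova1 with 2.91. Khdrbs3 was listed at 0 in all Luc libraries. Ptbp1 and Rbfox2 lay apart from the genes next to them. The ranges of the Luc libraries overlapped between Ptbp2, Mbnl1 and Mbnl2, and between neighbours from Srrm4 down to Nova1. The ranges therefore do not resolve the order of these neighbours, although those of Srrm4 and Nova1 did not overlap. Within each Luc library Ptbp2 was above Mbnl1, and Srrm4 was above Srrm3. In Sfpq libraries Ptbp2 stood above Rbfox2 without overlap, Nova2 stood above Mbnl2, and Srrm4 became the lowest of the detected regulators.

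**Figure D1:**
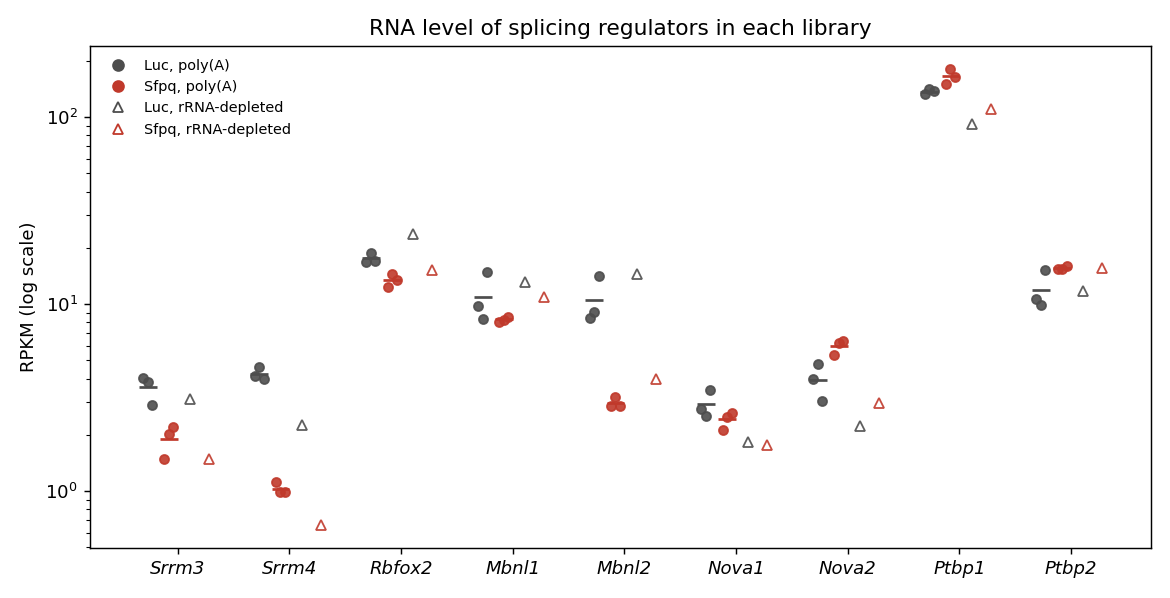
RPKM (log axis) of 9 splicing regulators in every library; filled circles are poly(A) libraries with a bar at the mean of 3, open triangles the single rRNA-depleted libraries, grey Luc and red Sfpq. Srrm4 and Mbnl2 show the widest gaps between Luc and Sfpq, and Khdrbs3, listed at 0 in 7 of 8 libraries, is not drawn.

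A mean of 0.5 RPKM was the minimum for testing, and of the 9 regulators that reached it 4 fell and 1 rose in poly(A) RNA (limma, Benjamini-Hochberg adjusted p under 0.05 over all 11727 genes tested), and 4 did not pass. Srrm4, Mbnl2, Srrm3 and Rbfox2 fell and Nova2 rose. Among all genes tested, 18.6% fell and 21.3% rose, or 40.0% in either direction. The median log2 fold change of the 9 regulators was -0.34, against 0.05 for all genes tested. In bulk RNA, fewer cells that express a gene and less of its RNA per cell cannot be told apart. Fold changes are differences of log2(RPKM + 0.5), which understate the change of low genes. The count of lower regulators was 3 or 4 under every alternative, and the count of higher ones ran from 0 (with no filter, without Sfpq replicate 2 or without Sfpq replicate 3) to 3 (without Luc replicate 3).

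The microexon activators fell, Srrm4 more than Srrm3. Srrm4 had 4.11, 4.596 and 3.9996 RPKM in Luc replicates 1 to 3 and 1.12, 0.990 and 0.985 in the Sfpq libraries. Each Sfpq library was far below each Luc library, and the Sfpq mean was 24.3% of the Luc mean (4.23 ± 0.318 to 1.03 ± 0.0748 RPKM, SD, n = 3). The log2 fold change was -1.63 (SE 0.12, limma adjusted p = 1.13e-05) and passed under each alternative tried. Srrm3, the paralog with an overlapping set of microexons, had 4.05, 3.83 and 2.91 RPKM in Luc and 1.49, 2.02 and 2.19 in Sfpq libraries. The groups did not overlap, although Luc replicate 3 came near the highest Sfpq library. Srrm3 retained 52.8% of its Luc mean. Its log2 fold change was -0.77 (SE 0.16), with a limma adjusted p of 0.00473, and the call ended with no filter on low values (limma, 0.0548). In rRNA-depleted RNA, with 1 library a group, Srrm4 went from 2.27 to 0.661 RPKM and Srrm3 from 3.10 to 1.49, so both were lower there too.

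Rbfox2, the Rbfox family member of many tissues that also acts in neurons, had a small fall. Its values were 16.8, 18.9 and 17.0 RPKM in Luc and 12.4, 14.6 and 13.5 in Sfpq libraries. All Sfpq libraries lay below all Luc libraries, and the Sfpq mean was 76.8% of the Luc mean. The log2 fold change of -0.37 (SE 0.11) passed with a limma adjusted p of 0.0216. The call ended without Luc replicate 1 (-0.40, adjusted p = 0.0547), Luc replicate 2 (-0.32, 0.0631), Sfpq replicate 1 (-0.31, 0.0714) or Sfpq replicate 3 (-0.37, 0.0784). In rRNA-depleted RNA Rbfox2 went from 23.8 to 15.3 RPKM.

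The Mbnl genes parted, with a large fall of Mbnl2, the member with the main role in brain, and a smaller difference of Mbnl1 that did not pass. Mbnl2 had 8.42, 9.13 and 14.2 RPKM in Luc and 2.85, 3.17 and 2.85 in Sfpq libraries, a drop in every library to well under the lowest Luc value. Its Sfpq mean was 27.97% of that in Luc, and the log2 fold change was -1.64 with an SE of 0.18 (limma adjusted p = 0.000129). Luc replicate 3 was the highest Luc library, and without it the log2 fold change was -1.42 (adjusted p = 1.87e-06). Mbnl1, the main member in muscle and other tissues, had 9.79, 8.29 and 14.8 RPKM in Luc and 8.07, 8.27 and 8.55 in Sfpq libraries. The groups overlapped, and again Luc replicate 3 stood above the others. Its log2 fold change was -0.34 (95% interval -0.75 to 0.07, limma adjusted p = 0.167), or -0.11 without Luc replicate 3, and it passed as lower only without Luc replicate 2 (-0.51, adjusted p = 0.0378). In rRNA-depleted RNA Mbnl2 went from 14.5 to 3.97 RPKM and Mbnl1 from 13.1 to 10.9.

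Of the 5 regulators called in poly(A) RNA, 4 have an entry in the RefSeq promoter table of build GRCm38.p6, which gives 250 bases before and 50 after a gene's annotated start. Of all 10 regulators 8 matched the table, Rbfox2 and Khdrbs3 not. The windows of these 4 called regulators are shown in lower case, 5′ to 3′ on the gene's strand. Capitals mark TGACG (the core of a cyclic AMP response element), GGGCGG (a GC box), CCAAT and TATAAA on either strand.
Srrm4, chr5:116591768-116592067, - strand: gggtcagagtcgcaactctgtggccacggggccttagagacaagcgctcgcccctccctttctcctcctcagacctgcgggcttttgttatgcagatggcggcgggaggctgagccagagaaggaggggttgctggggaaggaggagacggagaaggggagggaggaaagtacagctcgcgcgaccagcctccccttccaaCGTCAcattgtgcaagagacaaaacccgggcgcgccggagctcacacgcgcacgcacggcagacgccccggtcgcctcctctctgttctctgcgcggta
Srrm3, chr5:135817856-135818155, + strand: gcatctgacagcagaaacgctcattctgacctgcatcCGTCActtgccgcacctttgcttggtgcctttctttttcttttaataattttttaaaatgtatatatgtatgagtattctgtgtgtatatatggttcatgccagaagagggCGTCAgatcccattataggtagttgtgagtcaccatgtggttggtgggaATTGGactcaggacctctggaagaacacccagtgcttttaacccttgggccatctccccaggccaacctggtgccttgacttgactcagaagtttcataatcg
Mbnl2, chr14:120275419-120275718, + strand: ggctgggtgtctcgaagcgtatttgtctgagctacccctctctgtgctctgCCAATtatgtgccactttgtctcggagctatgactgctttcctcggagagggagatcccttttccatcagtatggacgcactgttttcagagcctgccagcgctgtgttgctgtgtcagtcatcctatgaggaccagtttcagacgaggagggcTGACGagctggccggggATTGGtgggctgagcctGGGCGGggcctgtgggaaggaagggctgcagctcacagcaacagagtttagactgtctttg
Nova2, chr7:18925638-18925937, + strand: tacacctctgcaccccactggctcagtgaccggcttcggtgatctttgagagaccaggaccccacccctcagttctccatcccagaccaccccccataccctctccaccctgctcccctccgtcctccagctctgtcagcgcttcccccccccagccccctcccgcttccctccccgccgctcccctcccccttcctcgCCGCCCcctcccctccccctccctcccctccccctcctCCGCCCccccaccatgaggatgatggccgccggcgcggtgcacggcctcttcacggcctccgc
Which start the RNA of these cells used was not measured, and the build differs from that of the deposited values, mm9. TGACG or its complement was in the windows of Srrm4 (1 match), Srrm3 (2), Mbnl2 (1) and Ptbp1 (1), and in neither Nova window, that of Ptbp2 or the 2 windows of Mbnl1; it is in 20.8% of all 32851 windows of the table. The same search found GGGCGG in 35.7%, CCAAT in 37.4% and TATAAA in 13.6% of all windows. Overlapping matches were counted, and TATAAA was in the upstream window of Mbnl1 alone among the 9 windows of members. The windows of Ptbp2 and the downstream start of Mbnl1 were the richest in G and C (74.7% and 75.0%), with 6 and 4 GC boxes, while that of Srrm3 had 45.0% and 5 CpG, against medians of 52.7% and 7 CpG over the table. A match describes letters in a window and was not tied to the changes in RNA.

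The Nova genes encode neuron-specific proteins first known as antigens in a paraneoplastic movement disorder. Nova2 passed as higher and Nova1 did not pass, which alone does not show that their changes differ. Nova2 had 3.99, 4.79 and 3.04 RPKM in Luc and 5.32, 6.19 and 6.34 in Sfpq libraries, with no overlap. Its mean was 1.51-fold that of Luc, and the log2 fold change was 0.55 with an SE of 0.16 (limma adjusted p = 0.0196). The call ended when low genes were not filtered (limma adjusted p = 0.114), or when Sfpq replicate 2 (0.53, adjusted p = 0.0746) or Sfpq replicate 3 (0.51, 0.0754) was left out. Leaving out Luc replicate 3 gave a smaller fold, 1.36 (limma adjusted p = 0.0138). Nova1 had 2.76, 2.52 and 3.46 RPKM in Luc and 2.11, 2.51 and 2.64 in Sfpq libraries, which overlapped. Its log2 fold change of -0.22 (95% interval -0.54 to 0.10) did not pass (limma adjusted p = 0.237). It was -0.11 without Luc replicate 3 and -0.14 without Sfpq replicate 1. In rRNA-depleted RNA Nova2 went from 2.23 to 2.95 RPKM and Nova1 from 1.84 to 1.76.

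The Ptbp repressors were higher in each Sfpq library than in any Luc library, but by amounts that did not pass. Ptbp1 had 132, 141 and 137 RPKM in Luc and 150.3, 182 and 165 in Sfpq libraries, a ratio of means of 1.21 (log2 fold change 0.27, 95% interval 0.04 to 0.50, limma adjusted p = 0.0635). It passed without Luc replicate 3 (0.27, adjusted p = 0.0302), without Sfpq replicate 1 (0.33, 0.0432) or with quantile normalization (0.41, 0.00854). Ptbp2 had 10.6, 9.84 and 15.2 RPKM in Luc and 15.4, 15.3 and 16.1 in Sfpq libraries, so that Luc replicate 3 almost reached the Sfpq values. Its ratio of means was 1.31 (log2 fold change 0.40, 95% interval 0.05 to 0.75, limma adjusted p = 0.0645). Without Luc replicate 3 the ratio was 1.52 and passed (0.58, adjusted p = 0.000236), and with a replicate block it passed as well (0.40, adjusted p = 0.0355). In rRNA-depleted RNA Ptbp1 went from 91.5 to 111 RPKM and Ptbp2 from 11.7 to 15.6. Khdrbs3 was listed at 0 in 7 of 8 libraries and at 0.0203 RPKM in Sfpq replicate 3, so it was not tested and no fold is given.

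**Figure D2:**
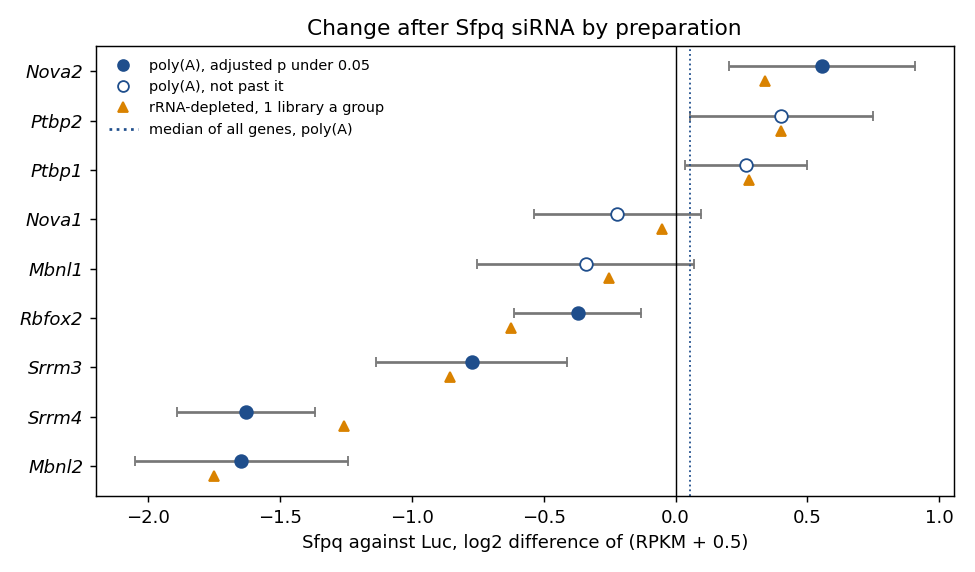
Difference between Sfpq and Luc in log2(RPKM + 0.5) for 9 regulators; circles are poly(A) RNA (3 libraries a group, bars the 95% interval of limma, filled where the adjusted p is under 0.05), triangles the ratio of 1 rRNA-depleted library a group, and the dotted line the median of all genes, 0.05. Triangles lie on the same side of 0 as the circles for all 9 genes, and the share of all genes for which this holds was not computed.

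The direction in rRNA-depleted RNA was that of poly(A) RNA for all 9 regulators measured. The share of all genes with the same direction in both preparations was not computed, so this count has no baseline. Of the 9 regulators, 6 had a log2 ratio below 0 and 3 above 0, whereas 48.3% of all 11386 genes measured there were above 0. Mbnl2 (-1.75) and Srrm4 (-1.26) were lower by at least 2-fold, as were 5.18% of all genes, and 0 regulators were higher by that much, against 1.65% of all genes (6.83% in either direction). Srrm3 (-0.85), Rbfox2 (-0.62) and Mbnl1 (-0.25) followed among the lower genes and Ptbp2 (0.40), Nova2 (0.34) and Ptbp1 (0.28) were the higher ones. Nova1, at -0.05, was close to the median of all genes, -0.02. With 1 library a group these ratios have no replicate error. With a pseudocount of 1, or a minimum mean of 2 RPKM, which leaves out Srrm4 and Nova1, Mbnl2 alone was lower by at least 2-fold, and with a pseudocount of 0.1 Srrm3 (-1.01) was lower by that much as well, 3 regulators in all.

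The poly(A) libraries of the 2 groups did not overlap for 7 of the 9 regulators, against 52.9% of all genes tested: 4 were lower (24.7% of all genes) and 3 higher (28.2%). Falls of at least 2-fold were called for 2 regulators, Mbnl2 and Srrm4, and for 4.73% of all genes. By p-value, Srrm4 ranked 148 and Mbnl2 538 among the 11727 genes, while Srrm3 ranked 2208, Nova2 3586 and Rbfox2 3699.

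**Figure D3:**
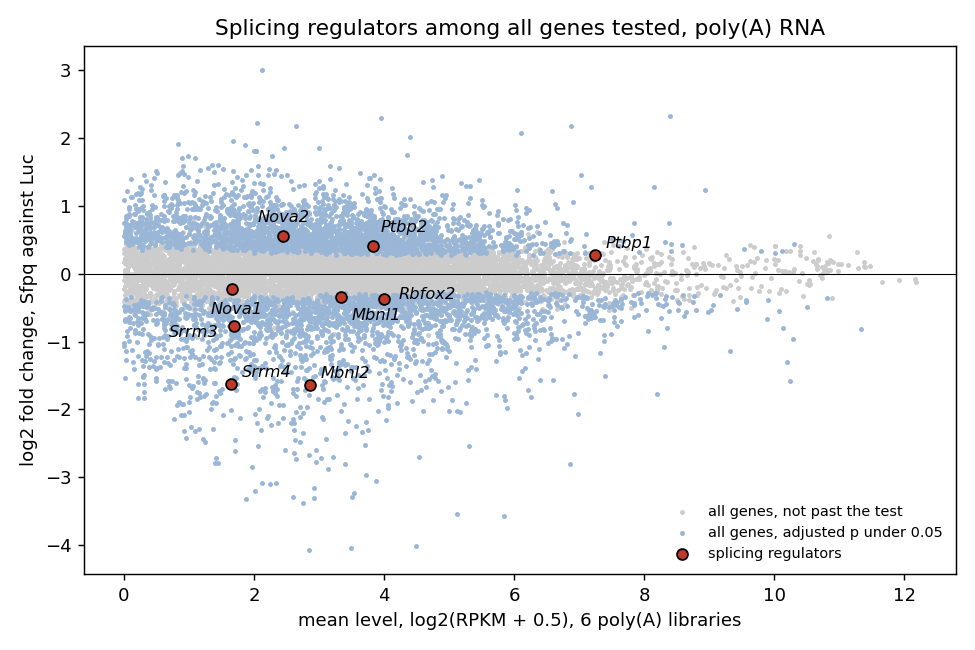
Log2 fold change between Sfpq and Luc against mean level, log2(RPKM + 0.5), for all 11727 genes tested in poly(A) RNA; blue points have an adjusted p under 0.05, grey points do not, and red circles are the regulators. Srrm4 and Mbnl2 lie in the lower part of the cloud, and the other 7 lie nearer to 0.

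Paralogs were compared within each library, which reduces differences in scale between libraries. In the log2 ratios the added 0.5 keeps these from cancelling fully, most of all for low genes. Mbnl2 was 0.973 times as abundant as Mbnl1 per length in Luc and 0.357 times in Sfpq libraries (means of 3 ratios). The log2 ratio of (RPKM + 0.5) went from -0.04 ± 0.17 to -1.35 ± 0.09 (SD, n = 3), a difference of -1.30 with no overlap between groups. Srrm4 against Srrm3 moved from 0.22 ± 0.19 to -0.64 ± 0.30 (SD, n = 3), a difference of -0.86 with no overlap. That difference was -0.70 with a pseudocount of 1 and -1.05 with a pseudocount of 0.1. Srrm3 was the more abundant of the pair in Sfpq libraries. Srrm4 was so in each Luc library, with log2 ratios of 0.016, 0.235 and 0.401 in Luc replicates 1 to 3. In Luc replicate 1 the levels were thus almost equal. In rRNA-depleted RNA Srrm3 was the more abundant in the Luc library already (-0.38). Nova1 against Nova2 moved from -0.37 ± 0.49 to -1.14 ± 0.02 (SD, n = 3), a difference of -0.77, also with no overlap, which was -0.51 without Luc replicate 3. For each of these 3 pairs the two-sided exact permutation test gave p = 0.1, the smallest that 3 against 3 libraries allow, or 0.133 adjusted over the 4 pairs compared, so none could pass.

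The log2 ratio of Ptbp2 against Ptbp1 was -3.50 ± 0.33 in Luc and, after Sfpq depletion, -3.36 ± 0.14 (SD, n = 3). The groups overlapped (difference 0.13, exact permutation p = 0.6, adjusted p = 0.6), and without Luc replicate 2 the difference was -0.0073. Ptbp2 thus had 0.0869 times the level of Ptbp1 in Luc and 0.0948 times in Sfpq libraries. In rRNA-depleted RNA the differences between the Sfpq and Luc library were -1.50 for the Mbnl pair, -0.40 for the Srrm pair, -0.39 for the Nova pair and 0.12 for the Ptbp pair, in the same directions.

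**Figure D4:**
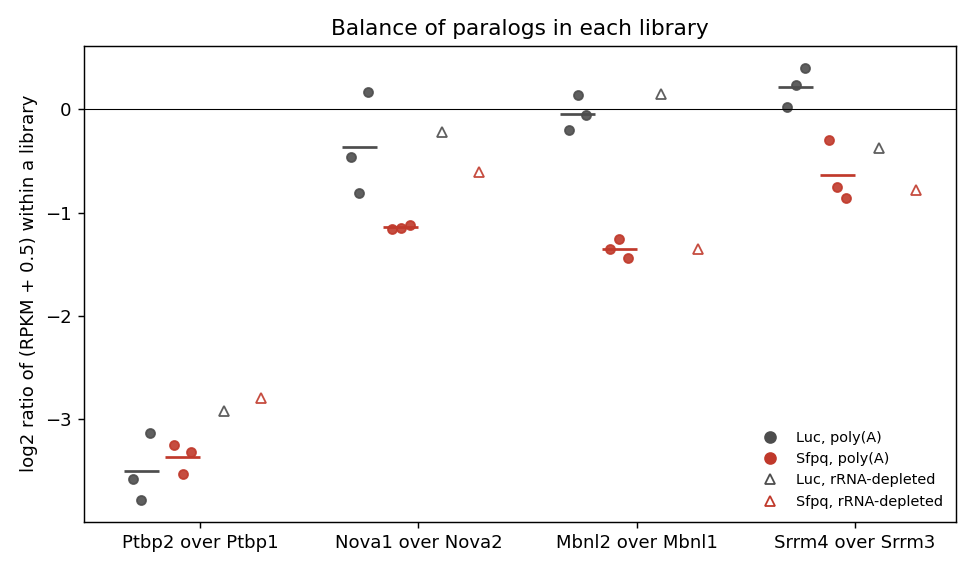
Log2 ratio of (RPKM + 0.5) between paralogs in every library; filled circles are poly(A) libraries with a bar at the mean of 3, open triangles the single rRNA-depleted libraries, grey Luc and red Sfpq. In poly(A) RNA the Nova, Mbnl and Srrm ratios are lower in each Sfpq than in each Luc library, and the Ptbp ratios overlap.

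Transcript rows of one regulator gave nearly the same values, so the tables hold little information on its isoforms. The 10 genes had 26 rows, of which 9 belonged to Rbfox2, 6 to Mbnl1, 3 to Ptbp1 and 2 to Mbnl2. The lowest row mean in Luc libraries was 10.4% under the highest for Rbfox2, 10.1% for Mbnl1, 1.79% for Ptbp1 and 0.0985% for Mbnl2. When every row was fitted on its own, 12 of 25 rows tested fell and 1 rose, against 19.3% and 21.6% (40.9% together) of all 16793 rows tested. Of the rows that fell, 8 were of Rbfox2 and 2 of Mbnl2. Rows of 1 gene repeat nearly the same values, so the 12 are not separate changes. Their share therefore cannot be read against that of all rows. The log2 fold changes ran from -0.39 to -0.36 over the Rbfox2 rows, of which 8 fell and 1 did not pass (NM_001286417, limma adjusted p = 0.0527). They ran from -0.34 to -0.32 over the Mbnl1 rows and from 0.26 to 0.28 over the Ptbp1 rows, none of which passed (limma; lowest adjusted p 0.163 for Mbnl1 and 0.0557 for Ptbp1).

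Out of 10983 genes whose mean reached 1 RPKM, those whose levels followed the 3 most changed regulators most closely over the 6 poly(A) libraries were named by Pearson's r of log2(RPKM + 0.5). For Srrm4 these were Syn1, which encodes synapsin 1 of synaptic vesicles (r = 0.9994), Ptgir, the prostacyclin receptor (0.9990), and Arhgef28 (0.9989). For Mbnl2 they were the granin gene Scg2 (0.9987), the lysosomal protease gene Lgmn (0.9972) and Pitpnc1 (0.9969), and for Srrm3 they were Flcn (0.9987), Gemin5 (0.9972) and Fbln2 (0.9962). The 6 points fall in 2 groups, Luc and Sfpq, and are the best of many genes, so these values are a description. Syn1 fell by 1.54 on the log2 scale, near the change of Srrm4, whereas Scg2 fell by 0.81.

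A list of 22 relatives and cofactors of the regulators was chosen with earlier results of these data known. All its called genes were higher after Sfpq depletion. Of the 13 that reached 0.5 RPKM, 7 rose and 0 fell (limma; 7 and 0 at unadjusted p under 0.05), against 21.3% and 18.6% of all genes, and the median log2 fold change was 0.35. Matr3, a nuclear matrix protein that works with Ptbp1, went from a mean of 48.4 ± 13.6 RPKM up to 73.0 ± 4.78 (SD, n = 3), a log2 fold change of 0.62 with a limma adjusted p of 0.0186. Its libraries held 43.5, 38.0 and 63.8 RPKM in Luc and 67.5, 75.8 and 75.9 in Sfpq, so Luc replicate 3 lay close to the Sfpq values. Its call ended when low genes were not filtered (limma adjusted p = 0.144) and in fits lacking Luc replicate 1 (0.0626), Sfpq replicate 2 (0.067) or the third Sfpq library (0.0617). Tra2a, an activator of exons with GAA repeats, rose by 0.57 on the log2 scale (limma adjusted p = 0.0018), with 37.2 ± 3.00 RPKM in Luc against 55.2 ± 1.38 (SD, n = 3). Raver1, a cofactor of Ptbp1, rose by 0.54 (limma adjusted p = 0.0064), with 21.04 ± 2.89 RPKM in Luc against 30.7 ± 1.82 (SD, n = 3). Leaving out Luc replicate 1 or Sfpq replicate 2 left 2 relatives that rose, leaving out Sfpq replicate 3 left 3, and with Luc replicate 3 left out 9 rose.

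Rest, named here after its values were seen, encodes the repressor of neuronal genes whose own mRNA is a target of Srrm4. It had 1.93, 1.87 and 2.11 RPKM in Luc and 2.64, 3.24 and 2.88 in Sfpq libraries, without overlap (0.47, limma adjusted p = 0.013). Its call ended without Luc replicate 1 (0.0512) or Sfpq replicate 2 (0.0731). The other 9 relatives lay under the minimum, with Luc means of at most 0.434 RPKM. That highest one was Rbfox1, also named after its values were seen, with 0.434 ± 0.0715 RPKM in Luc against 0.0886 ± 0.0209 after Sfpq depletion (SD, n = 3). With no filter on low values, 4 of all 22 relatives rose and 1, Rbfox1, fell (-0.66, limma adjusted p = 0.00585). Rbfox3, the neuronal nuclear antigen NeuN and likewise chosen after its values were seen, averaged 0.0506 RPKM in Luc and 0.08295 after Sfpq depletion.

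A second list, also chosen with earlier results known, held 42 genes with alternative exons that these proteins are known to control. Here the total RNA of each gene was compared, not its exons. Of 31 tested, 11 fell, 5 rose and 15 did not pass (limma), which is 35.5% lower and 16.1% higher against 18.6% and 21.3% of all genes, with a median log2 fold change of -0.22. Mapt, which encodes the microtubule-binding protein tau, had 14.3, 17.2 and 15.6 RPKM in Luc and 2.42, 3.72 and 4.58 in Sfpq libraries (-2.03, limma adjusted p = 5.29e-05). Cacna1c, a calcium channel gene with exons controlled by Rbfox and Ptbp proteins, had a log2 fold change of -1.61 (limma adjusted p = 1.37e-05), with 2.11 ± 0.180 RPKM in Luc against 0.356 ± 0.0127 (SD, n = 3). Bak1, a cell death gene whose exon is repressed by Ptbp1 in non-neuronal cells, rose by 1.44 (limma adjusted p = 4.63e-05), with 15.6 ± 1.94 RPKM in Luc against 42.98 ± 5.50 (SD, n = 3). In rRNA-depleted RNA the log2 ratios were -2.29 for Mapt, -1.38 for Cacna1c and 1.27 for Bak1. The other 11 genes of the list had Luc means of at most 0.480 RPKM and were not tested.

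**Figure D5:**
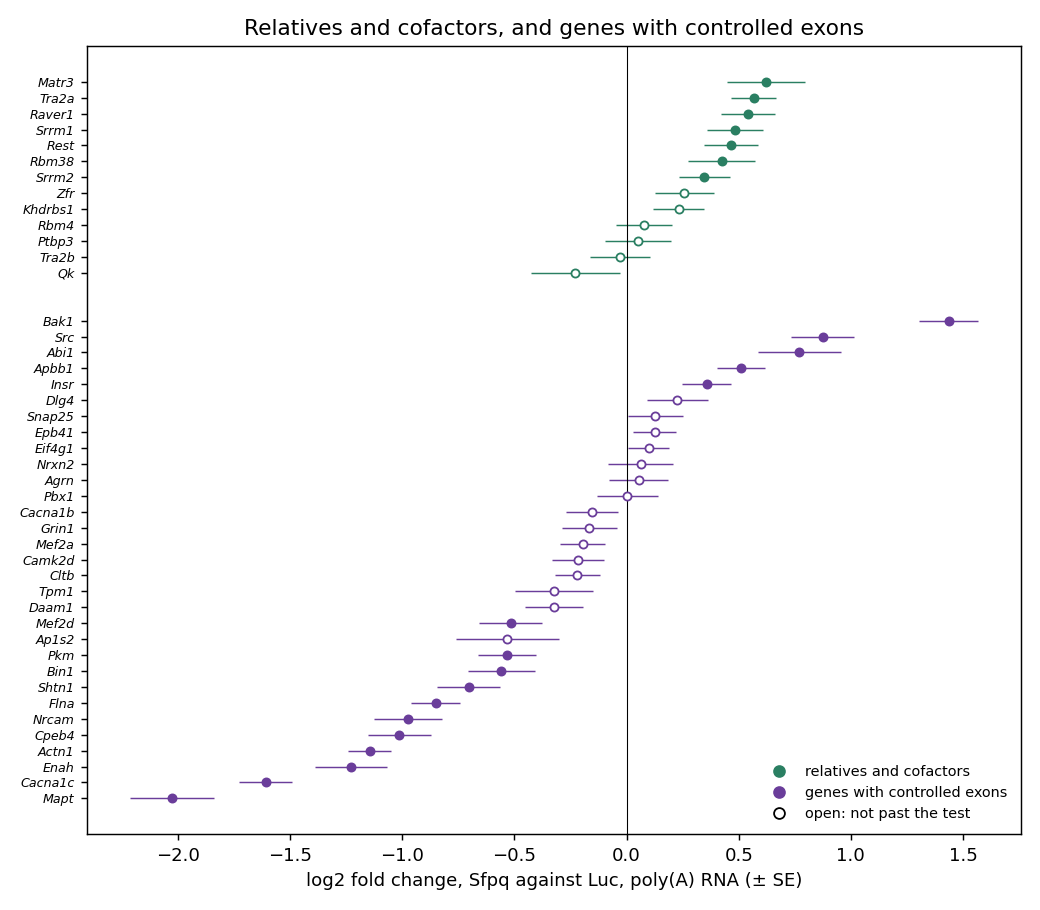
Log2 fold change between Sfpq and Luc in poly(A) RNA (bars are the SE, 3 libraries a group) for the tested genes of the list of relatives and cofactors (green) and of the list of genes with controlled exons (purple); filled points have an adjusted p under 0.05. The 7 called relatives all lie above 0, while the called genes with controlled exons lie on both sides, 11 below and 5 above.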

How the data were processed

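RNA-seq of Neuro-2a cells was taken from 8 libraries, grouped by their titles; the title of the second Sfpq poly(A) library was used where its description gives another replicate number. The values deposited by the authors are RPKM for each RefSeq transcript, per the file headers. The submitters' processing notes name TopHat2 2.0.10 and mm9; the sources used here do not give the RPKM program, its annotation, or its treatment of strand and of reads with several matches. Of 30978 rows, 30507 (98.5%) were named from a RefSeq table of GRCm38.p6, used for names only. The members and gene lists were chosen with earlier results of these data known.

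Genes whose mean over the 6 poly(A) libraries reached 0.5 RPKM entered limma 3.58.1 (R 4.3.3). It was fitted to log2(RPKM + 0.5) without covariates, letting the prior variance follow the mean level, and genes with a Benjamini-Hochberg adjusted p below 0.05 were called. The 2 rRNA-depleted libraries were described by log2 ratios. Paralog ratios were compared with exact permutation tests (scipy 1.17.1). Relative depth came from the commonest ratio between low values of 2 libraries; between 78.8% and 87.6% of pairs then lay within 0.002 (natural log) of a ratio of 2 whole numbers no larger than 20. With no read counts, no counting interval can be given. The poly(A) comparison was tested on simulated data for its 11727 genes, of which 11527 were left unchanged. Changes of 0.5 log2 units were given to 80 genes, of 1 to 80 and of 2 to 40. Of these, 22.5%, 73.8% and 92.5% were recovered, and 0.0607% of unchanged genes were called. In the real data 40.0% of genes were called, far more than were changed in the simulation. The adjustment depends on that share, so these rates do not carry over to the real comparison. The named genes were Sfpq, all members, the 3 called genes of each list with the largest change and the 3 genes most like each of the 3 most changed members; others are marked where they appear. Alternatives were pseudocounts of 0.1 and 1, no filter or a minimum of 2 RPKM, quantile normalization, scaling by median ratios, a replicate block, a constant prior variance in limma, the mean of all rows, a fit of every row and leaving out each library.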

Additional observations from a re-analysis of the deposited data

How the results depend on the processing

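Srrm4 and Mbnl2 were called lower under all 16 alternatives (log2 fold changes from -1.94 to -1.36 and from -1.78 to -1.42), and no regulator changed sign in poly(A) RNA. The count of regulators called higher, 1, was 0 with no filter on low values (limma, 2 at unadjusted p under 0.05), 2 with quantile normalization, 2 with a replicate block, and between 0 and 3 when a library was left out (1 at unadjusted p under 0.05 in each fit that gave 0). The count called lower, 4, was 3 or 4 throughout. In rRNA-depleted RNA the count lower by at least 2-fold, 2, was 1 with a pseudocount of 1, 1 with a minimum mean of 2 RPKM and 3 with a pseudocount of 0.1. The difference of the Ptbp2 over Ptbp1 ratio ran from -0.0073 to 0.31 when a library was left out. The cause of these shifts was not tested. Over all genes, 2502 rose. Leaving out Luc replicate 3 raised this to 3621, while 1546 rose when Sfpq replicate 2 was dropped and 1631 when Sfpq replicate 3 was. Whether replicate numbers pair the libraries is not settled. Deviations from group means correlated at 0.327, -0.035 and 0.157 for numbers 1 to 3, and not every library correlated best with its own number. With 3 libraries a group such values cannot exclude pairing. With a replicate block 2681 genes rose and 2309 fell, against 2502 and 2185 without it, and among the regulators the block changed the call of Ptbp2 alone. Lists were also counted under these alternatives, a choice made after seeing the data. Read counts are unknown, so how far depth limits the values under 0.5 RPKM cannot be given.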
